A study of Mus musculus with 4 samples.

Results

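The genes described here lie wholly inside the span of a gene on the opposite DNA strand. Members were autosomal genes with 50 or more exon bases shared with that gene, and no other gene on the opposite strand shared exon bases with them. From the exon coordinates in the deposited tables, 1494 of 50600 genes met the rule, out of 46381 autosomal genes. They formed 1489 pairs with an enclosing gene, since in 5 pairs of equal span each gene lies inside the other, and such a pair was entered once. RNA had been sequenced from primary T-helper 2 (Th2) cells of C57BL/6NJ mice, helper T cells of type 2 immunity. The series holds 1 group of 4 biological replicates, with no other cell type, treatment or control. The labels give the 4 libraries the same donor record and do not say that they came from separate mice, so the p-values below measure only the spread between these libraries, which may be technical. Paths in the file headers name 24 hr, a time absent from the labels.

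Genes on opposite strands that share exon bases can produce RNAs complementary to each other over the shared stretch, and such antisense RNAs are known as regulators of their partners at some loci. Many annotated nested genes are long noncoding RNA genes, and others are small RNAs, pseudogenes copied into a host gene, or protein-coding genes. Reads from the shared stretch look the same for both genes unless the library preparation keeps the strand, and the counter then assigns each fragment to the gene on the strand it is told to expect. Per the file headers, fragments were counted with strand setting 1. Whether the library kit marks strand, and in which orientation, is not given in the sources used here.

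A strand check outside the nested genes was made on the mitochondrial genome, whose coding genes lie on both strands. The single minus-strand coding gene had 36963, 35801, 49430 and 36113 counts in replicates 1 to 4. The 12 plus-strand coding genes together had 4207, 5509, 7040 and 5894. Per base, the minus-strand gene was higher by 184-fold, 136-fold, 147-fold and 128-fold, although the plus-strand genes encode the most abundant mitochondrial messages in cells generally. A count below is therefore given as the count of a gene on the strand that was counted, and is not read as that gene's expression. If the setting is opposite to the kit's orientation, the fragments counted for a gene come from the RNA of the other strand, and the direction between the genes of a pair could turn where they share bases. Every direction below is therefore one of counts on the strand counted, and the part of strand assignment in the results was not tested.

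Total counts were 1804217 to 2711948 per library, and genes with no shared exon bases held 6.87% to 11.1% of them. The Th2 label was checked on markers. Of 11 T cell markers, 8 had more than 3 counts in each library, with summed counts of 1146 to 1532, but the 9 of them that share no exon base with the other strand summed to only 69 to 281. Of 9 Th2 markers, 5 passed the same limit, among them Il4 with 24, 21, 25 and 26 counts, while Il13 had 1 count in all, Il5 had 1 and Il1rl1 had 0. Of 19 markers of other cell types, 14 were at 0 in all libraries, and the 19 summed to 998 to 1046. Nearly all of that sum was Csf1r, a macrophage receptor gene that shares exon bases with the other strand, with 1026, 993, 1006 and 983 counts, and the 18 with no shared bases summed to 15 to 20.

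Shared stretches of 6 members are printed here to show what a nested pair is in sequence. They are the 6 with the most counts among 21 long noncoding members whose shared stretch is 1 whole coding exon of the enclosing gene, 50 to 120 bases long, and in which the nested gene was called higher. Capitals mark the bases shared with the exon of the enclosing gene, and lower case marks 15 bases on each side that belong to the nested gene's exon and to the enclosing gene's introns. Each is read 5′ to 3′ on the nested gene's strand from GENCODE M21 transcripts of the mm10 (GRCm38) assembly, so the capitals are the reverse complement of the enclosing gene's exon.
Gm43361 in Atp2a2, chr5:122500731-122500813, plus strand: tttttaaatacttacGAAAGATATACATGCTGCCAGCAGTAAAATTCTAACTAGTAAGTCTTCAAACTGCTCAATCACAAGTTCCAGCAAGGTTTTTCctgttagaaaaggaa
1700018A23Rik in Ndufa9, chr6:126824936-126825002, plus strand: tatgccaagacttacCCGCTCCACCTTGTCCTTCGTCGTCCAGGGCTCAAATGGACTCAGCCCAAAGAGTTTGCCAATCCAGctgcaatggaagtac
Gm17130 in Babam2, chr5:32007235-32007317, minus strand: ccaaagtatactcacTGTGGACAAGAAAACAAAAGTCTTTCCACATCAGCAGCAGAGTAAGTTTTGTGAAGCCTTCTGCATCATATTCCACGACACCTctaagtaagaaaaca
Gm16907 in 2010111I01Rik, chr13:63296858-63296944, minus strand: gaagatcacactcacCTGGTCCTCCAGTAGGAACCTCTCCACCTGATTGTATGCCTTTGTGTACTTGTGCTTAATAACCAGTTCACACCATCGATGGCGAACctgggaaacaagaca
Gm47950 in Ubp1, chr9:113970142-113970260, minus strand: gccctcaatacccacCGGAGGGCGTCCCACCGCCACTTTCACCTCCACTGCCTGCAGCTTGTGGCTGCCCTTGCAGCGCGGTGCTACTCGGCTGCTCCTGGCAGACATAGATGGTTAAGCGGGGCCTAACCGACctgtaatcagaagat
Anxa11os in Anxa11, chr14:25870069-25870181, minus strand: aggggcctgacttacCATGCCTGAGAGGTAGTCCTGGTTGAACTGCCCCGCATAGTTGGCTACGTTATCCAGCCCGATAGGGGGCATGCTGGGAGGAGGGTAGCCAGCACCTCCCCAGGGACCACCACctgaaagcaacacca

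In these 6 pairs the shared exon was between 67 and 119 bases, a small share of the nested gene. Gm43361, whose exons cover 4690 bases, had 1653, 1621, 2044 and 1620 counts, against 46, 62, 83 and 75 in Atp2a2, the calcium pump of the endoplasmic reticulum. 1700018A23Rik had 1072, 1092, 1076 and 1028 counts, against 1, 14, 8 and 2 in Ndufa9, a subunit of respiratory complex I. Gm17130 had 606, 571, 561 and 405 counts, against 1, 4, 2 and 1 in Babam2. In each of these the libraries of the nested gene stood far above those of the enclosing gene without overlap. Gm16907 had 482, 465, 428 and 457 counts, against 123, 121, 145 and 113 in 2010111I01Rik. Gm47950 had 429, 390, 353 and 494, against 12, 14, 17 and 7 in the transcription factor gene Ubp1. Anxa11os had 335, 390, 381 and 371, against 1, 1, 0 and 0 in Anxa11, a calcium-dependent phospholipid-binding protein. The enclosing genes had fewer counts in every library. Only pairs with the nested gene called higher were printed, so this direction was fixed in advance. The ratio was lowest for Gm16907, at a log2 ratio per exon base of 3.32 ± 0.21 (SD over 4 libraries).

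The smallest nested features were miRNA genes, and their mature forms are shown because the counts lie on so short a stretch. Of 135 nested miRNA genes, 61 were matched by name to RefSeq miRNA sequences, and 9 of those had more than 3 counts in each library. The 5 with the most counts are printed, with the seed, bases 2 to 8, in capitals, in the table's GRCm38 coordinates. No seed is shared among them.
miR-762, chr7:127708534-127708555, plus strand, in Bcl7c: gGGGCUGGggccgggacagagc
miR-6340, chr2:173701098-173701120, minus strand, in Rab22a: gUCAGCAGcagcuucgcuuuggc
miR-3082-3p, chr17:25831366-25831387, minus strand, in Jmjd8: cACAUGGCacucaacucugcag
miR-3082-5p, chr17:25831406-25831427, minus strand, in Jmjd8: gACAGAGUgugugugucugugu
miR-130c, chr9:53400808-53400829, minus strand, in Kdelc2: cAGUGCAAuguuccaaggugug
miR-1905, chr3:88536311-88536332, minus strand, in Mex3a: cACCAGUCccaccacgcgguag

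The libraries count fragments over the hairpin gene and do not measure the mature miRNA. Mir762 had 260, 317, 325 and 886 counts, highest in replicate 4, against 18, 11, 9 and 3 in Bcl7c, a chromatin remodelling subunit. Mir6340 had 244, 234, 172 and 261, against 4, 3, 4 and 4 in Rab22a, an endosomal GTPase. Mir130c had 49, 36, 52 and 35, against 0, 1, 0 and 1 in Kdelc2. Mir1905 had 31, 35, 47 and 39, against 4, 2, 2 and 2 in Mex3a, an RNA-binding protein. In these 4 every library of the nested gene exceeded every library of its enclosing gene. Mir3082 was the exception, with 70, 84, 83 and 45 counts beside 3201, 3506, 3281 and 3337 in Jmjd8, and per exon base the log2 ratio was -0.16 ± 0.41, not called by edgeR (adjusted p = 0.478). Of the 135 nested miRNA genes, 79 had no count in any library.

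Nested genes were short and their enclosing genes long. The median exon length was 792 bases for nested and 4958 bases for enclosing genes, and the median shared stretch was 243 bases, between 50 and 5142. In 576 members there was 1 exon, and in 410 all exon bases were shared with the enclosing gene. By GENCODE M21 gene type, 911 of the 1489 nested genes of the pairs were long noncoding, 206 small RNA, 202 coding and 158 pseudogenes, and 12 had no type. The enclosing genes were 1380, of which 1295 held 1 nested gene, 73 held 2 and 12 held 3 or more. Just inside the limit of 50 shared bases, 23 members with 50 to 59 shared bases had a median mean count of 0 and a highest of 265. Just outside it, 23 nested genes with 40 to 49 shared bases had a median of 2 and a highest of 365.

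Together the nested genes held 18.9% ± 2.76 (SD, n = 4) of all counts, on exons that make up 1.68% of the exon length of all genes. Their summed counts were 374219, 384194, 404952 and 415861 in replicates 1 to 4, against 139371, 141757, 150216 and 147124 for the enclosing genes. The share was 20.7%, 20.8%, 14.9% and 19.2%, lowest in replicate 3. It depends on the total used: without CT010467.1 and mitochondrial genes in the library totals it lay between 21.5% and 22.9%, with an SD of 0.70. Nested totals exceeded enclosing totals by 2.73 ± 0.0656 times (SD, n = 4), with little difference between libraries. Per kb of exon, nested genes had 197 counts and enclosing genes 17.0 in the mean library.

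The counts were concentrated in few members. The single highest member held 6.52% of all nested counts, the top 10 held 25.1% and the top 50 held 54.2%. Of the nested genes, 102 had a mean count of at least 1000, 275 had 100 to under 1000, 258 had 10 to under 100, 318 had above 0 and under 10, and 536 had no count in any library. Among the enclosing genes, 32 had a mean of at least 1000 and 126 had 100 to under 1000.

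More than 3 counts in each of the 4 libraries, a level above what a count of 0 can hide, were found in 668 of 1489 nested genes (44.9%) and in 443 of 1380 enclosing genes (32.1%). Over all autosomal genes the share was 13.4%, and over those that share no exon base with the other strand it was 6.54%. By type, the share was 56.7% for the 825 long noncoding genes nested in coding genes, against 2.37% of 7555 long noncoding genes with no shared base. Nested coding genes reached it in 80 of 202 cases (39.6%, against 13.6% of 16390), pseudogenes in 37 of 158 (23.4%, against 0.897% of 8810) and small RNA genes in 57 of 206 (27.7%, against 0.461% of 5428). Every type was thus above its own unpaired genes, and these shares are descriptions of the gene groups with no test. A high share was not particular to nested genes. In opposite-strand pairs that were not nested, the shorter-span gene reached the level in 1509 of 2629 pairs. For long noncoding genes paired with a coding gene of longer span it was 569 of 974. For 2 coding genes it was 797 of 1082, against 64 of 122 nested pairs.

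Each nested gene was then set against its enclosing gene within each library, per exon base. A log2 ratio above 0 means more counts per exon base in the nested gene after a prior of 0.5 counts was added to both. For a short nested gene without counts, the prior alone can put the ratio above 0. Gm44408, 66 bases long and at 0 in all libraries, had a ratio of 1.65 against Ryr1 with 54, 48, 42 and 68 counts. That pair was not called, and was named after its values were seen. The test was edgeR's quasi-likelihood fit with library as a block, over all 2628 opposite-strand pairs with at least 40 counts in the pair, with Benjamini-Hochberg adjustment. A pair could pass that filter through 1 gene alone, so that such a pair was likely to differ. Of the 809 nested pairs tested, the nested gene was higher in 591 (73.1%), the enclosing gene in 161 (19.9%), and 57 were not called. The same fit called the shorter-span gene higher in 62.9% and the longer-span gene higher in 29.9% of all opposite-strand pairs. The median log2 ratio was 6.26 ± 0.50 (SD over 4 libraries) in nested pairs, 6.21 with genes at 0 set to their bound. It was 3.51 over all pairs tested and 2.37 over the 1819 pairs outside the rule. The mix of gene types differed, with long noncoding in coding genes 507 of the 809 nested pairs and 617 of the 1819 others. Within that type the medians were 7.30 in nested pairs and 6.16 in the others. For coding in coding genes they were 0.60 and 0.58.

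The ratio spread widely among members, from -11.81 to 13.32, with the 10th percentile at -4.52 and the 90th at 10.16. The member median was 6.09, 5.95, 5.91 and 6.98 in replicates 1 to 4. It was highest in replicate 4, and without that library it was 6.24. With the prior added, all 4 libraries had a ratio above 0 in 601 tested members and below 0 in 169. The 601 include members without counts in the nested gene, such as Gm44408. In 69 tested pairs the nested gene had no count in any library, and in 13 the enclosing gene had none. Across the 809 tested pairs the CPM per kb of the 2 genes, which share a library and a locus, had a Spearman rank correlation of -0.227. Within long noncoding genes in coding genes it was 0.108 (507 pairs). The filter on the summed counts of a pair left out pairs low in both genes, among them 353 with no count in either gene. Leaving these out can by itself lower the correlation, so no inverse relation between the 2 genes is read from it. CPM is the count per 1000000 counts of the library, scaled by its normalization factor.

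**Figure D1:**
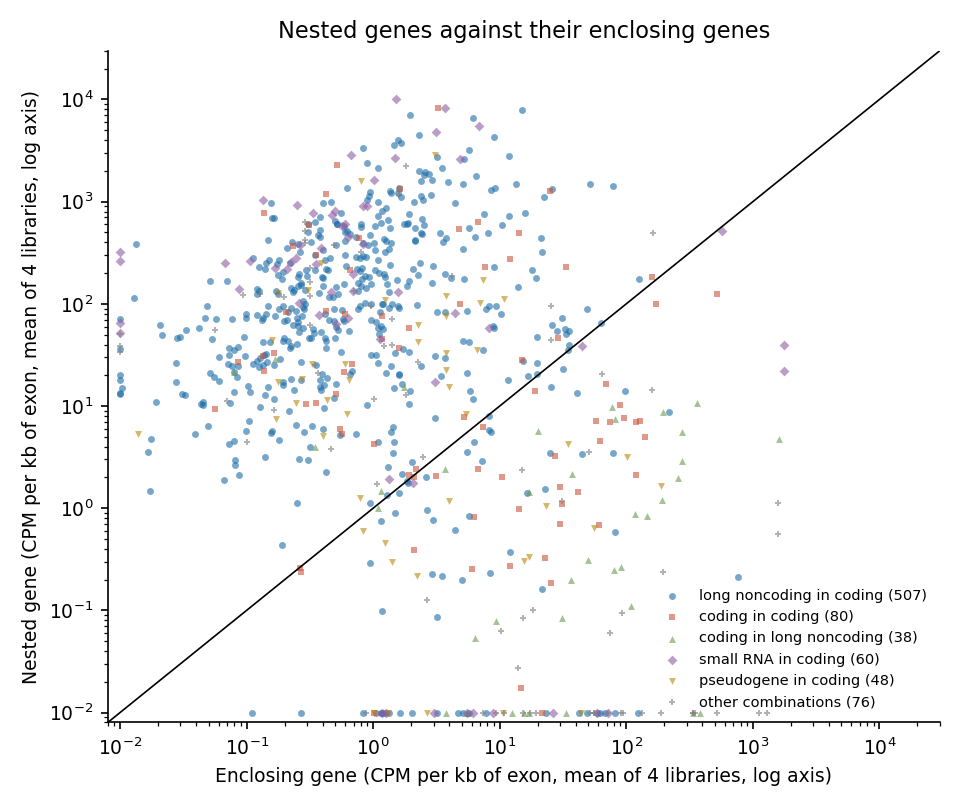
Each point is 1 of the 809 tested nested pairs, with the enclosing gene's level on the x axis and the nested gene's level on the y axis, both in CPM per kb of exon averaged over 4 libraries on log axes, and levels under 0.01 drawn at 0.01. Points above the line have more counts per base in the nested gene: most long noncoding genes in coding genes lie above it and most coding genes in long noncoding genes lie below it.

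The 12 members with the most counts all had the nested gene called higher. They were chosen by the nested gene's counts, so this direction was likely in advance. Of the 335 pairs with a mean of at least 100 in the nested gene alone, all 335 were called nested higher. The highest was Gm20721 (chr2:174330319-174346712, minus strand), annotated as protein-coding, with 1469 of its 1484 exon bases shared with Gnas, which encodes the stimulatory G protein alpha subunit. Gm20721 had 24303, 25976, 27220 and 25399 counts. Gnas, 11186 exon bases long, had 65, 104, 74 and 65. The log2 ratio per exon base was 11.32 ± 0.30 (SD, 4 libraries; edgeR adjusted p = 1.66e-07), a fold of 2549. The libraries of the 2 genes did not come near each other.

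Gm11175 (chr8:70699162-70700080, minus strand) lies with all its 877 exon bases in Jund, a subunit of the AP-1 transcription factor. It had 10258, 12707, 11314 and 23490 counts, highest in replicate 4, while Jund had 44, 48, 78 and 44. The log2 ratio was 8.95 ± 0.77. Gm17638 (chr15:77961674-77967126, plus strand) shares 625 of 4343 exon bases with Eif3d, a subunit of a translation initiation factor. It had 14123, 14200, 14311 and 12454 counts, against 58, 62, 83 and 19. The nested gene moved little across libraries here, while Eif3d was lowest in replicate 4, and the log2 ratio was 6.94 ± 0.83.

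Gm26762 had 7094, 7593, 8215 and 7530 counts inside Gpi1, the glycolytic isomerase, which had 27, 54, 47 and 8. Gm17041 (chr9:107300380-107301838, minus strand) had 6435, 7150, 7123 and 7846 counts inside Cish, a cytokine signalling inhibitor, which had 27, 32, 33 and 15. Gm26669 had 7106, 6933, 7774 and 6187 inside Zfp36l1, an RNA decay factor, which had 19, 29, 16 and 1. In all 3 the enclosing gene had its lowest count in replicate 4. Gm26899 had 6978, 6701, 7862 and 6247 inside Zfp106, which had 62, 57, 62 and 8. Gm17134 had 5868, 6071, 5924 and 6462 inside Ptbp1, a splicing repressor, which had 65, 79, 81 and 23. Gm16755 had 5090, 5361, 4925 and 5176 inside Mrpl12, a mitochondrial ribosomal protein gene, which had 21, 20, 21 and 6. The same replicate was again the lowest in each enclosing gene.

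Gm44170 lies wholly in Sec61a1, the channel of protein translocation, with 4341, 4389, 4241 and 4243 counts against 29, 22, 26 and 17. 9130221H12Rik in Gsk3a, a glycogen synthase kinase, had 4614, 4721, 5309 and 4316 against 496, 464, 497 and 451. Gsk3a had the most counts of these enclosing genes and the pair had the lowest of these ratios, 4.19 ± 0.089. Its ratio also varied little between libraries.

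**Figure D2:**
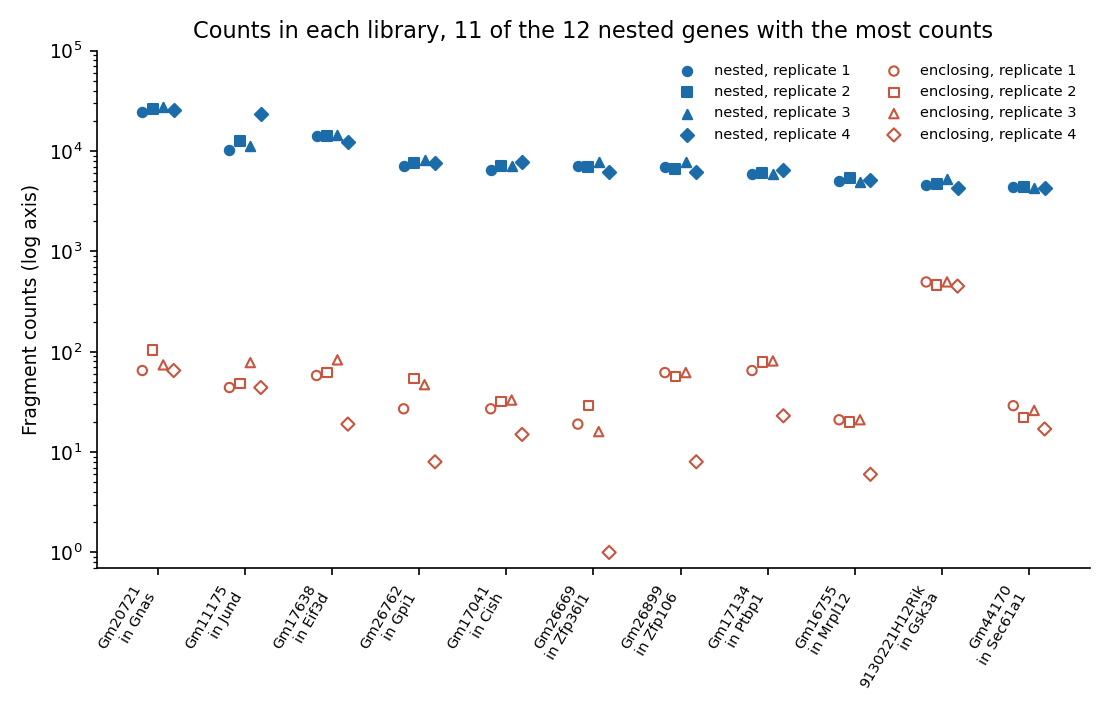
Fragment counts on a log axis for 11 of the 12 nested genes with the highest mean count (filled) and their enclosing genes (open), with 1 marker shape per replicate. The nested genes lie at 4241 counts or more in every library, and the enclosing genes at 497 or fewer, with replicate 4 (diamonds) lowest in several of them, such as Zfp36l1 at 1 count.

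Gene type went with the direction of the ratio. Of 507 tested long noncoding genes in coding genes, the nested gene was higher in 435 (85.8%) and the enclosing gene in 46 (9.07%), with a median log2 ratio of 7.30. Where the roles were exchanged and a coding gene was nested in a long noncoding gene, the nested gene was higher in 4 of 38 and the enclosing gene in 31, with a median of -5.87. On the strand counted, the long noncoding gene was thus more often the higher gene in both arrangements, and with the opposite strand setting this order could be the reverse. In pairs of 1 long noncoding and 1 coding gene outside the rule, the long noncoding gene was also higher in 85.8% of 790. The nested share was thus the same as that of the other pairs.

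Among coding genes nested in coding genes, the nested gene was higher in 40 of 80 and the enclosing gene in 30. The median was 0.60. In 943 coding pairs outside the rule, the shorter-span gene was higher in 49.4%. Pseudogenes in coding genes had the nested gene higher in 29 of 48, with a median of 3.59. In pairs outside the rule, a pseudogene of shorter span than its coding partner was higher in 21 of 23, with a median of 5.98. Small RNA genes in coding genes had the nested gene higher in 45 of 60, with a median of 8.63, and miRNA genes among them in 37 of 45. Only 3 pairs outside the rule with a small RNA gene of shorter span than its coding partner were tested, with the small RNA gene higher in 2. Long noncoding genes in long noncoding genes split 12 against 14 of 27, small RNA genes in long noncoding genes 9 against 11 of 20, and pseudogenes in long noncoding genes 5 against 5 of 11. In pairs of these types outside the rule, the shorter-span and longer-span gene split 16 against 12 of 35, 0 against 2 of 2 and 1 against 8 of 9. Among the annotated kinds of long noncoding gene in coding genes, antisense genes were higher in 296 of 342 (86.55%) and lincRNA genes in 51 of 56. Genes of the TEC class, which await experimental checks, were higher in 55 of 71. Over all 507 long noncoding genes in coding genes the share was 85.8%. The 60 members whose symbols end in os, for opposite strand, had the nested gene higher in 31 of 36 tested. That share, 86.1%, was near the 85.8% of long noncoding genes in coding genes.

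**Figure D3:**
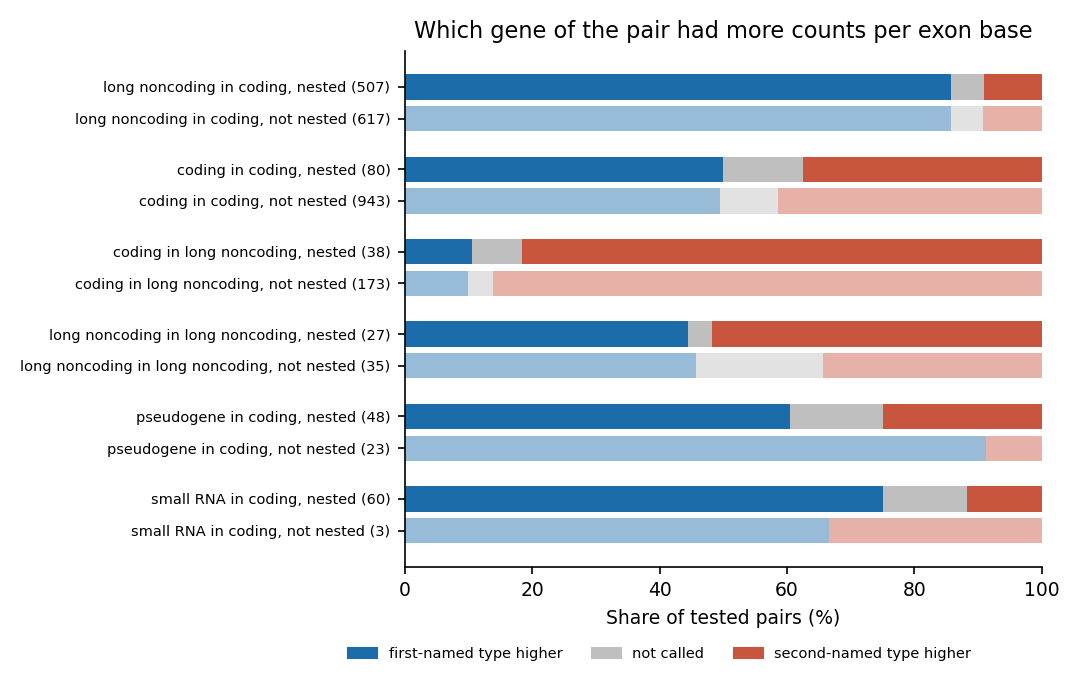
Share of tested pairs, in percent, in which the first-named type (blue) or the second-named type (red) had more counts per exon base by the edgeR test, with grey for pairs not called and the number tested in parentheses. Full colour is nested pairs. Pale colour, labelled not nested, is all opposite-strand pairs outside the rule. For long noncoding in coding genes the bars reach 85.8% and 85.7%, and for coding in coding genes 50% and 49.4%.

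The 4 coding genes that were higher inside a long noncoding gene, receptor segments included, were named after their values were seen. Gapdhs, the sperm form of a glycolytic enzyme, had 104, 99, 94 and 95 counts against 1, 1, 0 and 0 in Tmem147os. Tuba3a, a tubulin gene, had 8, 5, 12 and 24 against 5, 3, 3 and 2 in 4930417O13Rik. The other 2 were T cell receptor variable segments, Trav13d-3 with 15, 24, 15 and 17 counts against 0, 0, 1 and 0 in Gm30214, and Trav13n-3 with 10, 18, 7 and 9 against 3, 2, 7 and 8 in Gm43650. These segments belong to families of near-identical copies, so their counts are uncertain. For Trav13n-3 and Gm43650 the libraries overlapped in raw counts.

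Of the 31 coding genes that were lower than the long noncoding gene around them, 4 are given as examples, also chosen after their values were seen. Tnfrsf18, the costimulatory receptor GITR, had 16, 17, 14 and 14 counts, and the long noncoding gene Gm16008 around it had 4160, 4678, 4636 and 4479. The log2 ratio was -8.36 ± 0.16 (edgeR adjusted p = 1.66e-07). Tagap, a GTPase-activating protein of activated T cells, had 16, 30, 26 and 5, and E430024P14Rik around it had 2709, 2741, 2757 and 3103, a log2 ratio of -6.76 ± 1.20. Tusc2 had 2, 5, 6 and 0, and Gm9917 had 1746, 1903, 1702 and 2056. Elf3, an epithelial transcription factor, was at 0 in all 4 libraries inside Gm26642, which had 2317, 2322, 2408 and 1978. In each of these the coding gene had few counts on the strand counted, and the noncoding gene around it had many.

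Coding genes inside coding genes showed both directions. Gm13199 in Nudt5, a nucleotide hydrolase, had 2106, 2089, 1988 and 1933 counts against 356, 352, 333 and 327. Its log2 ratio was 5.66 ± 0.0065, which hardly differed between the libraries. E130208F15Rik, wholly shared with Sdhaf1, an assembly factor of respiratory complex II, had 1504, 1720, 1758 and 2183 against 66, 78, 81 and 73. B430305J03Rik, wholly shared with the small GTPase gene Rap2b, had 1436, 1658, 1831 and 2230 against 99, 128, 93 and 116. Gm26602 in R3hdm4 had 1368, 1415, 1388 and 1364 against 5, 2, 14 and 4. All 4 are predicted or cDNA-named genes, higher than the gene around them in every library. They were chosen for their high counts, so this direction was likely in advance.

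In the other direction, Prc1, a microtubule-bundling protein of cell division, had 84, 94, 85 and 78 counts inside Rccd1, which had 2435, 2181, 2524 and 2233, a log2 ratio of -4.83 ± 0.16. Mrps34, a mitochondrial ribosomal protein gene, had 25, 26, 31 and 38, and Nme3, a nucleoside diphosphate kinase, had 5, 1, 8 and 2. Both lie inside Mapk8ip3, a scaffold of kinase signalling, which had 3086, 3377, 3734 and 4263. These 2 comparisons thus share their enclosing gene. Pdcd2, whose 2582 exon bases are all shared with the TATA-binding protein gene Tbp, had 91, 84, 94 and 90 against 1896 to 2066. Ankrd61 in Eif2ak1, a kinase of the stress response, was not called: it had 869, 872, 1085 and 806 against 1994, 2120, 1768 and 1737, a log2 ratio of 0.21 ± 0.26 per exon base (edgeR adjusted p = 0.28). These coding pairs were also named after their values were seen.

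The members with the enclosing gene higher included the most counted enclosing genes. Tlcd1, a membrane lipid regulator, had 17954, 18030, 18026 and 19631 counts. The small nucleolar RNA genes nested in it, Snord4a with 3, 8, 7 and 6 and Snord42a with 3, 4, 2 and 3, had log2 ratios of -5.40 ± 0.56 and -6.12 ± 0.35. Gm10337 had 29, 50, 33 and 60 counts inside Map3k12, a neuronal stress kinase, with 9451, 9482, 9841 and 10330, a log2 ratio of -2.11 ± 0.45. Gm47252 had 0, 0, 0 and 1 inside Samd11, with 5813, 5745, 5993 and 5664. Snora73a had 2 counts in all and Snora73b 1, inside the lincRNA gene Gm17300 with 5244, 5011, 5460 and 4718. Per exon base Gm17300 exceeded Snora73a by 1372-fold (95% counting interval 380 to 11326) and Snora73b by 2743-fold (492 to 108350), and Samd11 exceeded Gm47252 by 3953-fold (709 to 156150).

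These enclosing genes had a further gene on the opposite strand, outside the nested one. Rpl23a, a ribosomal protein gene, shares 506 bases with Tlcd1 and had 310, 347, 368 and 108 counts. Pcbp2, an RNA-binding protein gene, shares 1571 bases with Map3k12 and had 120, 147, 132 and 93. Noc2l shares 598 bases with Samd11 and had 67, 76, 63 and 33. Over the tested members, 104 of the 161 enclosing genes that were higher (64.6%) had such a further opposite gene, against 194 of the 591 in which the nested gene was higher (32.8%). Where the enclosing gene had no further opposite gene, the nested gene was higher in 397 of 478 pairs (83.1%) and the enclosing gene in 57 (11.9%). Where it had 1 or more, the figures were 194 of 331 (58.6%) and 104 (31.4%). This split was made after the values were seen and is given without a test.

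In 42 pairs both genes had a mean count of at least 100. The nested gene was higher in 36 of these, the enclosing gene in 4, and 2 were not called. A share over other opposite-strand pairs at this limit is not given here. Over all opposite-strand pairs tested, without the limit, the shorter-span gene was higher in 62.9%. Gm17201 in Ankrd52 had 1189, 1182, 1228 and 1251 counts against 901, 848, 1061 and 870, and Gm29361 in Rbm25, a splicing factor, had 814, 849, 993 and 922 against 617, 700, 919 and 427. In the pair of Gm17206 and Serhl the raw counts were higher in the enclosing gene, 1830, 1945, 2066 and 1997 against 185, 169, 224 and 259, while the ratio per exon base was 0.44 ± 0.24. A further 335 pairs had a mean of at least 100 in the nested gene alone, and 131 in the enclosing gene alone. The pairs of this paragraph were also named after their values were seen.

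The members with the most shared bases differed widely in their counts. A630072M18Rik shares 5142 of its 5410 exon bases with Rsbn1l and had 232, 247, 337 and 432 counts against 394, 333, 450 and 444. The log2 ratio per exon base was 0.82 ± 0.30 (edgeR adjusted p = 0.0039), while raw counts were higher in Rsbn1l in every library. Gm26778, wholly shared with Kctd12, had 347, 406, 464 and 461 against 2, 4, 2 and 5. Gm26702, wholly shared with Ajm1, had 109, 107, 158 and 122 against 2, 0, 3 and 1. Gm26751 in Nynrin had 17, 15, 14 and 7 against 0, 0, 0 and 1. Gm26883 and Tshz2, with 5076 shared bases, had no count in any library.

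Position and extent of the shared stretch were compared by cutting the enclosing gene's exon bases into 3 equal parts. With the centre of the shared bases in the 3′ part, the nested gene was higher in 150 of 194 tested members, with a median log2 ratio of 7.28. In the middle part it was higher in 214 of 304, with a median of 6.30, and in the 5′ part in 227 of 311, with a median of 5.85. Members with all exon bases shared had a median of 7.31 (161 of 212 higher), those with 50% to under 100% had 7.48 (103 of 134), and those with under 50% had 5.67 (327 of 463). Nested genes of 2 exons were higher in 261 of 308 (84.7%), single-exon genes in 179 of 269 (66.5%) and genes of 3 or more exons in 151 of 232 (65.1%). Exon number went with gene type. Long noncoding genes in coding genes made up 262 of the 308 pairs, 93 of the 269 and 152 of the 232. The order by position differed in the pairs outside the rule, where the medians were 1.55, 4.38 and 2.84 for the 3′, middle and 5′ parts. The differences between these groups were not tested.

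Among long noncoding genes in coding genes alone, the nested gene was higher in 111 of 121 members with the shared stretch in the 3′ part, with a median log2 ratio of 8.28. The medians were 7.30 in the middle part and 6.53 in the 5′ part. With all exon bases shared the nested gene was higher in 66 of 70, with a median of 8.96. By exon number the shares lay closer together than over all members. The nested gene was higher in 231 of 262 with 2 exons (88.2%), 75 of 93 with 1 exon (80.6%) and 129 of 152 with 3 or more (84.9%).

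**Figure D4:**
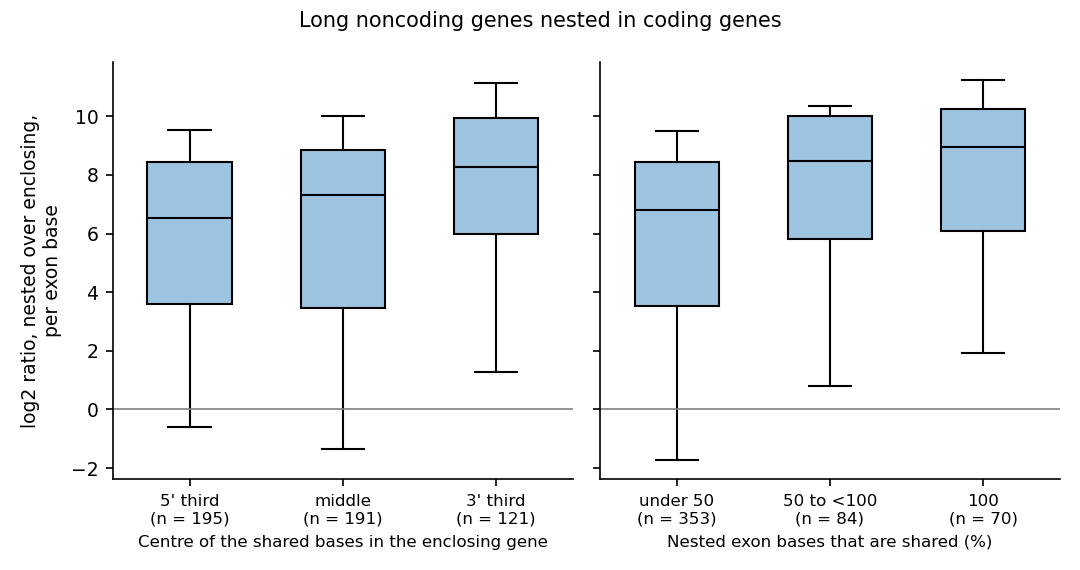
Log2 ratio of the nested over the enclosing gene per exon base, for the 507 tested long noncoding genes in coding genes, by where the centre of the shared bases lies in the enclosing gene (left) and by the share of nested exon bases that is shared (right). Boxes span the quartiles, lines are medians and whiskers reach the 10th and 90th percentiles: the medians go from 6.53 in the 5′ part to 8.28 in the 3′ part, with wide overlap between groups.

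Enclosing genes were looked at through lists of 227 genes, of which 22 enclosed members in 23 pairs. The lists cover T cell receptor signalling, Th2 genes, T cell transcription factors, translation, metabolism, cell cycle and other cell types. Over all lists, of the 16 pairs tested, the nested gene was higher in 15 and the enclosing gene in 0, with a median log2 ratio of 8.54. All 16 were long noncoding genes in coding genes, the arrangement in which the nested gene was higher in 85.8% of the 507 tested, with a median of 7.30, and over all nested pairs tested the values were 73.1% and 6.26. The list of T cell receptor signalling and costimulation gave 3 of 3, the list of T cell transcription factors 6 of 6, Th2 genes and cytokine receptors 2 of 3, metabolism 2 of 2 and cell cycle 2 of 2. No translation gene enclosed a member, and none of the 3 pairs with genes of other cell types had the counts to be tested.

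In the receptor list, Gm48719 (chr9:44999429-45002985, plus strand) shares 135 of its 361 exon bases with Cd3e, a signalling chain of the T cell receptor. Gm48719 had 2549, 2746, 2735 and 2857 counts, and Cd3e had 16, 17, 14 and 4. The log2 ratio was 11.36 ± 0.98 (edgeR adjusted p = 1.89e-07). Gm27206 had 358, 341, 394 and 420 inside Plcg1, a phospholipase of receptor signalling, which had 21, 14, 31 and 17. In both pairs every library of the nested gene exceeded every library of the enclosing gene.

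Among Th2 and cytokine genes, Gm13256 (chr2:9877256-9878869, plus strand) had 1364, 1638, 1747 and 2006 counts inside Gata3, the master factor of Th2 cells, which had 20, 47, 44 and 22. Gm44876 had 867, 927, 787 and 897 inside Il4ra, the interleukin-4 receptor chain, which had 31, 39, 19 and 7. These log2 ratios were 8.67 ± 0.64 and 8.56 ± 1.06. In the other 3 pairs of this list the nested gene had at most 6 counts in a library. Gm12534 had 2, 1, 3 and 2 inside Il21, which had 23, 26, 42 and 26, and per exon base the pair was not called (edgeR adjusted p = 0.478). Gm12214 had 0, 6, 6 and 2 inside Il5, which had 0, 0, 0 and 1. Gm15655 had 2, 3, 3 and 4 inside Maf, which had none, at least 74.9-fold higher per exon base with 3 counts over the group as the floor.

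Of the transcription factors, Bach2os had 1743, 1822, 2044 and 1901 counts inside Bach2, a repressor of effector differentiation, which had 32, 34, 35 and 7. Gm26626 had 565, 526, 608 and 615 inside Runx1, which had 7, 7, 9 and 3. Gm11802 had 278, 278, 293 and 268 inside Tox, which had 4, 2, 1 and 5. All 3 nested genes varied little between libraries. Gm20402 had 440, 563, 485 and 1180 inside Foxo1, a factor of T cell quiescence, which had 4, 10, 7 and 6, so that here the nested gene was highest in replicate 4. Gm26577 had 119, 111, 83 and 135 inside Myb, which had 0, 2, 3 and 1. Gm15511 in Rora had 2, 0, 2 and 4 counts, and Zeb2os in Zeb2 had none.

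In the cell cycle and metabolism lists, Gm44985 had 1273, 1203, 1241 and 1430 counts inside Plk1, the mitotic kinase, which had 6, 12, 14 and 3. Gm17590 had 380, 433, 390 and 361 inside Cdk6, a kinase of G1 phase, which had 50, 79, 38 and 51. Hk1os had 5, 17, 20 and 17 inside hexokinase gene Hk1, which had 15, 27, 32 and 7. Its log2 ratio of 2.06 ± 1.15 per exon base (edgeR adjusted p = 0.0051) was the lowest called in these lists, and the raw counts of the 2 genes overlapped. Gm11505 in Mpo, a neutrophil enzyme, had 1 count in all, and both members in Pax5, the B cell factor, had none.

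Variation between libraries was measured as the log2 CPM of 1 library against the mean of the other 3, for genes that reached 10 counts in all of the other 3. In replicate 4, 4 of 597 nested genes were more than 1 log2 unit lower (0.67%) and 37 were more than 1 higher (6.20%). Over all genes in that library, 24.7% were lower and 3.86% were higher. Of 396 enclosing genes, 79 were lower (19.9%) and 11 were higher (2.78%), so that the low values of replicate 4 were found in enclosing genes and, with 4 exceptions, not in nested genes. In bulk RNA, fewer cells of a type and less RNA per cell cannot be told apart, and neither these nor strand assignment was tested as a part of this difference.

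The other replicates stood closer together. In replicate 1, 10 of 598 nested genes were lower and 1 was higher, against 2.19% lower and 0.424% higher over all genes. In replicate 2, 12 of 597 were lower and 0 higher, against 2.17% and 1.7%. In replicate 3, 11 of 596 were lower and 1 higher, against 1.69% and 1.1%. In these 3 libraries the nested genes were near the share of all genes on the low side and below it on the high side. The median coefficient of variation over 4 libraries was 11.01% for the 377 nested genes and 12.3% for the 158 enclosing genes with a mean count of at least 100, and 7.09% and 8.05% over replicates 1 to 3.

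The lower values of replicate 4 followed which gene of the pair was lower per exon base. In 267 pairs both genes had at least 10 counts in replicates 1 to 3. In the 223 of them in which the nested gene was called higher, the median difference of replicate 4 was 0.22 for nested and -0.38 for enclosing genes, and 72 enclosing genes but 0 nested genes were more than 1 lower. In the 32 with the enclosing gene higher, the medians were 0.22 and 0.29, and 4 nested genes but 0 enclosing genes were more than 1 lower. These 4 include all 3 named as the members lowest in replicate 4. Since the call and this difference use the same counts, the pattern is a description.

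**Figure D5:**
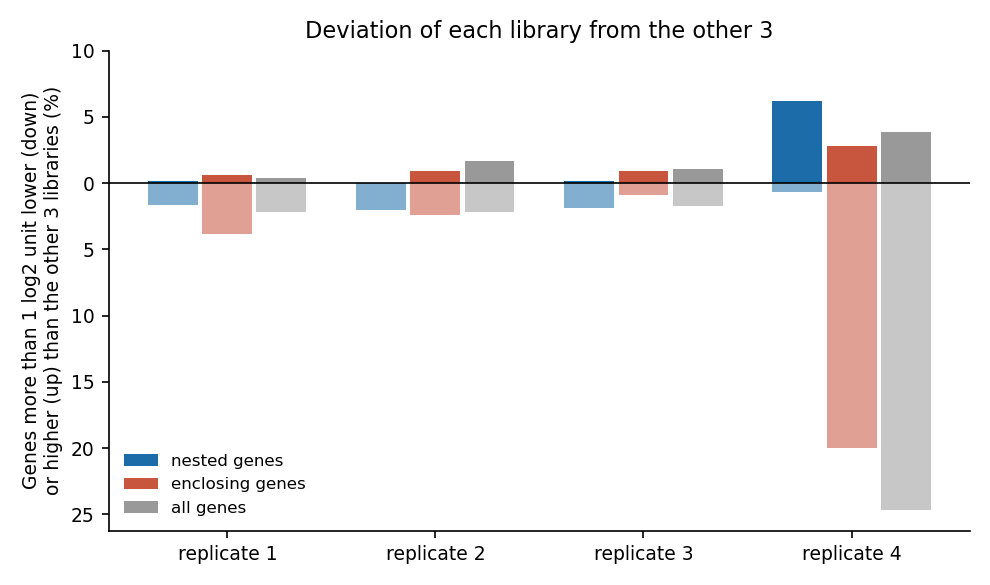
Percent of genes more than 1 log2 unit higher (bars up, full colour) or lower (bars down, pale colour) in 1 library than in the mean of the other 3, for nested genes, enclosing genes and all genes that reached 10 counts in all of the other 3. In replicate 4 the downward bars reach 0.67% for nested genes, 19.9% for enclosing genes and 24.7% for all genes.

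The 3 members lowest in replicate 4 were coding genes in pairs with the enclosing gene higher. Eif3m, a translation initiation subunit, had 18, 25, 27 and 2 counts inside Ccdc73, which had 274, 272, 224 and 223. Tagap, given above, had 5 counts in replicate 4. Lcp2, the T cell receptor adaptor SLP-76, had 66, 93, 93 and 21 inside 4930469K13Rik, which had 203, 188, 183 and 175. None of their enclosing genes was more than 1 log2 unit lower in that library. Their shared stretches were short, 88 bases for Lcp2 and 82 for Eif3m, and when the counts of the whole nested gene were divided by these bases in place of its exon length, the direction turned for both. Counts over the shared stretch alone were not analysed here.

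The 3 members highest in replicate 4 had the nested gene called higher. Gm22877, a miRNA gene in Slain1, had 19, 52, 28 and 200 counts against 1, 5, 4 and 1. Gm43474 in Slc15a4, a lysosomal histidine transporter, had 30, 47, 59 and 178 against 0, 1, 0 and 0. Gm6598 in Tmem248 had 208, 281, 236 and 756 against 8, 9, 8 and 8. In all 3 members replicate 4 stood above the other 3 libraries without overlap, which follows from how they were chosen. The enclosing gene stayed low.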

How the data were processed

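RNA-seq fragment counts of 4 Th2 libraries were used. The authors ran featureCounts 1.4.6-p4, per the file headers, on exons summed by gene of GENCODE M13, requiring both ends aligned and with strand setting 1. The deposited values are raw counts, not normalized. The labels give mm10 as the assembly. Total RNA-seq is the assay they name, although a protocol they link to carries poly(A) in its name. The labels' protocols name no aligner, and the header paths name star2 and a stranded workflow, with no version.

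Overlapping exons within a gene were joined using the deposited coordinates, and exon bases shared with the other strand were summed, in a procedure checked on a made-up locus. Symbols and gene types came from GENCODE M21 of the same assembly. Of the IDs, 50376 matched a symbol and 224 did not, and 12 nested genes had no gene type. Sequences came from GENCODE M21 transcripts and the RefSeq miRNA table.

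The pair test was edgeR 4.0.16 (R 4.3.3), a quasi-likelihood fit on 8 columns, the 4 libraries times the 2 genes of a pair, with library as a block and exon length and TMM-scaled library size as offsets. It covered 2628 opposite-strand pairs with at least 40 counts, with Benjamini-Hochberg adjustment and a threshold of 0.05, and left 3 residual degrees of freedom per pair. It was tested on simulated counts. Ratios are log2 per exon base with a prior of 0.5 counts. Intervals of ratios that involve 1 to 3 counts are 95% exact conditional binomial and, like floors of 3 counts, cover counting error only. Fragments without molecular identifiers are not independent molecules. Alternatives used DESeq2 1.42.0, limma 3.58.1, other filters, scalings, priors, limits on shared bases, and each replicate left out in turn. One of them, leaving out pairs in which either gene shares exon bases with a gene on its own strand, was chosen after seeing the data. There 50 nested and 100 enclosing genes have such overlaps and their counts are uncertain. Tables were made with Python 3.11.15, pandas 2.3.3 and scipy 1.17.1.

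The members, lists and tests were chosen with earlier results of these data known. Named members were the 12 with the highest mean count, the 6 with the most counted enclosing genes among those called enclosing higher, the 6 with the most shared bases, all whose enclosing gene is in a list, the 6 coding members with the highest mean count, and the 3 lowest and 3 highest in replicate 4. Of these, 2 are not reported here. Others are marked as named after their values were seen, and the sequences shown follow their own stated rule.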

Additional observations from a re-analysis of the deposited data

Results flagged for a closer look

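In 13 of 73 sets of 4 library values of named genes, 1 library lay far from the other 3 by Dixon's test at the 95% level, which chance does in about 1 of 20 sets. In 10 of the 13 the library was replicate 4, but 3 of these genes were named because they were highest in it, so the tally is not independent of that choice. Without the pairs named for replicate 4 alone it was 10 of 64 sets, with replicate 4 in 7. Nested genes stood high in it: Gm11175 in Jund at 12120 CPM and Gm17041 in Cish at 4048 CPM. E130208F15Rik in Sdhaf1 stood at 1126 CPM, Gm20402 in Foxo1 at 608.7 CPM and Gm6598 in Tmem248 at 390 CPM. The miRNA gene Gm22877 in Slain1 stood at 103.2 CPM and Gm43474 in Slc15a4 at 91.83 CPM. Enclosing genes stood low in it: Zfp106 at 4.127 CPM, Bach2 at 3.611 CPM and Mrpl12 at 3.095 CPM. The remaining 3 were Jund, highest in replicate 3 at 34.53 CPM, Gnas, highest in replicate 2 at 47.73 CPM, and Hk1os, lowest in replicate 1 at 2.433 CPM.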

How the results depend on the processing

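The nested gene was called higher in 466 to 689 pairs and the enclosing gene in 125 to 234 under the other filters, scalings and tools, against 591 and 161. With each replicate left out in turn, the calls were 573 to 577 and 148 to 159, the median log2 ratio 6.236 to 6.536, the nested genes over 3 counts 671 to 678 and the nested share of counts 18.28% to 20.24%. Without pairs that overlap a gene on their own strand, an alternative chosen after seeing the data, the calls were 528 and 135. The limit on shared bases set the size of the group: at 200 bases there were 838 nested genes, 402 with over 3 counts in each library, 349 and 105 pairs called, and 15.18% of the counts. Leaving CT010467.1 and mitochondrial genes out of the library totals gave 21.89%. The median log2 ratio was 4.486 for pairs with any count, 6.952 for pairs with at least 200 counts, 3.815 on raw counts, 7.917 with the nested gene's whole count divided by its shared bases and 5.694 with a prior of 2 counts. For replicate 4, requiring 30 counts in the other libraries gave 0.201% of nested genes lower, 3.42% higher and 11.9% of enclosing genes lower. Plain library totals gave 1.34% of nested genes lower and 1.77% of enclosing genes higher, and DESeq2 size factors gave 4.29% of enclosing genes higher. The median difference of all genes in replicate 4 was 0.01 with TMM, 0.13 with DESeq2 factors and -0.20 with plain totals, while ratios within a library do not move with these. Among the named pairs 674 comparisons with an alternative kept direction and side of the threshold. On raw counts the direction reversed for Hk1os (-0.418) and A630072M18Rik (-0.411), and Gm12534 against Il21 became called at -3.79. It also reversed for Lcp2 (1.4) and Eif3m (1.84) when the nested gene's whole count was divided by its shared bases, where only that divisor differs, and this is no count over the shared stretch. The cause of the other changes was not tested. The pair test compares genes within each library, with library as a block. No paired analysis was possible between groups of samples because the series has 1 group. At these depths, members with fewer than 40 counts in the pair were not tested, and 3 counts in a library is the limit that a count of 0 allows.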

Other observations

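Histone H2A genes, which encode a core protein of chromatin, enclosed 18 annotated miRNA features on their opposite strand. All 11 tested had the nested feature called higher by edgeR, 7 were not tested, and 4 features and 10 enclosing histone genes were at 0 in all libraries. Apart from H2afj and H2afx, the tested histone genes had at most 2 counts in a library. Those pairs reached the limit of 40 counts through the nested feature, so their direction was fixed in advance. Over all miRNA genes tested in coding genes, the nested gene was higher in 37 of 45. Summed counts of the nested features were 2490, 3100, 3163 and 5271 in replicates 1 to 4, against 40, 37, 36 and 41 for the histone genes. Most came from 2 features, Gm44364 in H2afj with 1202, 1598, 1467 and 2224 counts and Gm44335 in H2afx, the histone variant of the DNA damage response, with 1022 to 2273, highest in replicate 4. Gm44394 in Hist1h2ae had 53, 72, 74 and 170 beside a histone gene at 0. Many H2A genes are near-identical copies, so counts within them are uncertain.

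Some enclosing genes held several members, which then share the enclosing gene's counts. Cep295, a centrosomal protein gene with 167, 130, 97 and 120 counts, held the antisense gene Gm16568 with 1855, 1621, 1953 and 1655 and the pseudogenes Gm48141 and Gm48142 with 170, 184, 172 and 189, and 81, 68, 93 and 104. The long noncoding gene 5430416N02Rik had 4, 5, 1 and 0 counts, and its 4 nested small RNA features had between 49 and 215 in each library. Dleu2, a long noncoding host gene of miRNAs, had 2, 5, 12 and 11 and held 4 members, the highest of which, Gm26916, had 150, 111, 103 and 114. By contrast, the miRNA genes opposite Rtl1 and those in Nlrp12, 5 in each, had no count in any library. Gm37376, a feature of 453 bases wholly inside Malat1, an abundant nuclear long noncoding RNA, had 1089, 753, 1361 and 1631 counts, and Malat1 had 25, 32, 29 and 9. Gm42418 had 33, 36, 1065 and 45 around AY036118, which was at 0, and is high in replicate 3 only. The genes of these paragraphs were chosen after their values were seen.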
